A study of Rattus norvegicus with 12 samples.

Results

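The genes described here mark T, B and natural killer (NK) lymphocytes, and they were followed in the mammary glands of ovariectomized rats given 17β-estradiol (E2), 3-methylcholanthrene (3-MC), both or neither. The 47 genes were chosen by symbol: 21 of T cells, 12 of cytotoxic and NK cells, 9 of B cells and 5 shared by leukocytes. A probe set that carried the symbol alone was found for 44 of them, among 29214 probe sets on the array. Eomes was measured only together with another gene, and Cd79a and Pax5 were not analysed here. Of the 44, 39 passed the filter on low values (19 T, 10 cytotoxic and NK, 5 B and 5 shared genes), and Cd28, Ctla4, Gzmk, Ms4a1 and Cr2 did not.

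RNA of whole glands was measured on Affymetrix Rat Gene 1.0 ST arrays, one for each of 12 rats, and each of the 4 groups held 3 rats. All rats, the controls included, were female Lewis rats ovariectomized at about 10 weeks of age and treated from 14 days later. The groups received vehicle (a mixture of DMSO and castor oil), E2 at 4 μg/kg/day, 3-MC at 15 mg/kg/day, or both compounds at these doses. The methods give 3 treatments at 24-hr intervals and the labels give 48 h, with glands taken 24 h after the last treatment. E2 is the main ovarian estrogen, and 3-MC is a polycyclic aromatic hydrocarbon that binds the aryl hydrocarbon receptor (AHR). Removing the ovaries takes away most of a rat's own estrogen, so the vehicle group is a model of a gland with little estrogen and not of an intact cycling gland. Values are linear intensities in arbitrary units, and differences are on the scale of log2(intensity + 16).

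T cells recognize antigen through a receptor that signals through the CD3 chains, with CD4 or CD8 as coreceptor. Cytotoxic T cells and NK cells kill target cells by releasing perforin and granzymes and secrete interferon gamma, whereas B cells signal through a receptor built on CD79A and CD79B and carry CD20, the product of Ms4a1. The AHR is itself active in several lymphocyte types, and a dissected mammary gland may hold scattered lymphocytes, or a lymph node within its fat. In RNA of a whole gland, fewer cells of a type and less RNA per cell cannot be told apart.

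Reference sequence near the start of these genes was examined for short motifs. RefSeq held a window for 33 of the 47 genes (GRCr8). The windows printed below run from 250 bases before the annotated start to 50 bases from the start on, so that each ends inside the first transcribed bases. Those of Nkg7, Prf1 and Gzmb are shown because they were the windows of cytotoxic and NK genes that held both of the motifs marked in them. Capitals mark AGGAAG, the core letters bound by ETS factors, and TGTGGT, those bound by RUNX factors, on either strand. Ifng and Cd8a are shown for the receptors under study: capitals mark GCGTG, the core of the AHR response element, in Ifng and AGGTCA, a half-site of the estrogen response element, in Cd8a.
Nkg7 (chr1:102981247-102981546, plus strand): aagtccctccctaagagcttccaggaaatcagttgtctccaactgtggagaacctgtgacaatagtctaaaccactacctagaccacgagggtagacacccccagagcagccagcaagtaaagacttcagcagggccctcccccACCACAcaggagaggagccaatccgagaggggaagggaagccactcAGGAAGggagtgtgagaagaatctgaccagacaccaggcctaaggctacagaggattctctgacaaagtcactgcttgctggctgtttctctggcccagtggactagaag
Prf1 (chr20:29788790-29789089, plus strand): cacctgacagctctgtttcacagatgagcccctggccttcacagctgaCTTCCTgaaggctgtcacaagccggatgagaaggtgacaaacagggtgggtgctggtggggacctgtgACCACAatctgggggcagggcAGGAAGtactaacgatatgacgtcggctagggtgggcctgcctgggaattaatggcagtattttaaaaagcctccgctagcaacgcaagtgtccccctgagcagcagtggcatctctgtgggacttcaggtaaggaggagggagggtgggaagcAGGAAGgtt
Gzmb (chr15:34462420-34462719, minus strand): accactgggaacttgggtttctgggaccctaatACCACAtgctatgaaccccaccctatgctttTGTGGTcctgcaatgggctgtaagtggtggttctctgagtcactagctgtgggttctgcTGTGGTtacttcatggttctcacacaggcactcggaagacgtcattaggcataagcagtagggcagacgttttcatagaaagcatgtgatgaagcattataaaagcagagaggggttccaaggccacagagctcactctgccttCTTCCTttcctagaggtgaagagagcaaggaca
Ifng (chr7:55788930-55789229, plus strand): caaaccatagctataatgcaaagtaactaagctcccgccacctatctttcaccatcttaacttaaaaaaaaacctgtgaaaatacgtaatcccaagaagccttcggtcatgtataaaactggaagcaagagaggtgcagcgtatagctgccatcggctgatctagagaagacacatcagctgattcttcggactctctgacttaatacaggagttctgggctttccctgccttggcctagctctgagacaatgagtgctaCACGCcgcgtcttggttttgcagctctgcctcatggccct
Cd8a (chr4:104923866-104924165, plus strand): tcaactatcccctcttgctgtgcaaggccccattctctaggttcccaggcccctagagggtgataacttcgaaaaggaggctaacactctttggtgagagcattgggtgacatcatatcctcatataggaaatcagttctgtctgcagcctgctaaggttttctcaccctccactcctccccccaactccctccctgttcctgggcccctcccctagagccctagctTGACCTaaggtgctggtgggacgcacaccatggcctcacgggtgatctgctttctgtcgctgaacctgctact

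The AHR letters GCGTG were in 10 of the 33 windows (30.3%), against 29.7% of all 33469 windows. The AGGTCA letters were in 3 (9.09%), those of Cd8a, Lck and Klrb1b, against 16.2% of all windows. AGGAAG was in 21 (63.6%), against 34.5% of all. TGTGGT was in 11 (33.3%), against 17.3% of all, and these were 5 T cell and 6 cytotoxic and NK genes (Eomes, Gzma, Gzmb, Gzmk, Nkg7 and Prf1) and none of the 4 B cell or 4 shared genes with a window. None of the 4 motifs contains another, and a match is a description of the letters only.

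Before any comparison, the arrays differed in ways that touch these genes. The methods name quantile normalization, but medians of the deposited arrays ran from 85.7 to 109.5. Skeletal muscle genes also varied strongly, with a level (the median log2 difference of a list's genes from the vehicle mean) between -3.96 and 2.34, and rat 3 of the vehicle group and rat 3 of the 3-MC group were lowest. The shared leukocyte gene Ptprc, which encodes CD45, gave 297, 172 and 593 with vehicle, 199.9, 212 and 231 with E2, 964, 309.98 and 698 with 3-MC and 280.5, 926 and 644 with E2 + 3-MC. Vehicle rat 3, 3-MC rats 1 and 3 and E2 + 3-MC rats 2 and 3 were thus high in CD45, and all 3 E2 rats were low. Among rats of the same group, the median SD of log2 values was 0.30 for T, 0.31 for cytotoxic and NK, 0.29 for B and 0.53 for shared genes, against 0.19 for all 23371 probe sets tested, so that lymphocyte genes varied between rats of a group more than the typical probe set.

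**Figure D1:**
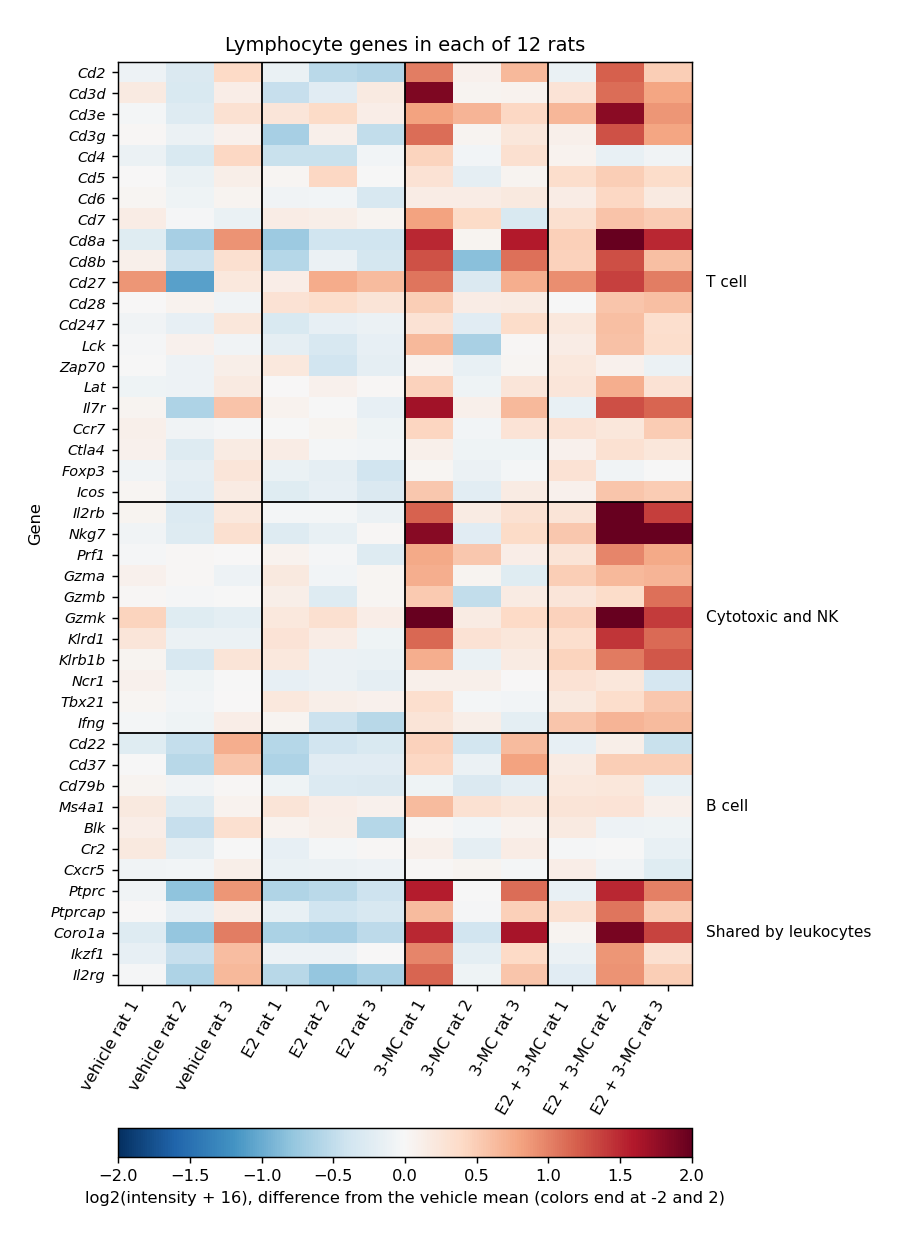
Heat map of the 44 lymphocyte genes with a probe set (rows, by class) in each of the 12 rats (columns, by group), with color for the difference of log2(intensity + 16) from the vehicle mean and colors ending at -2 and 2. Most T, cytotoxic and shared genes are red in 3-MC rat 1 and in E2 + 3-MC rats 2 and 3, and the B cell rows are pale in most rats.

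E2 + 3-MC against E2 asks how lymphocyte genes differ when the AHR ligand is added to the estrogen. Of the 5 comparisons between groups it held the largest medians of the T, cytotoxic and NK, and shared classes. Of the 44 genes, 43 had a higher mean with E2 + 3-MC than with E2, and the other, Cr2, had a log2 difference of -0.00016. In 29 of the 44 all 3 E2 + 3-MC rats were above all 3 E2 rats and in none was the order opposite, whereas 12.4% of all 29214 probe sets were higher without overlap and 5.15% lower. By class the genes higher without overlap were 15 of 21 T, 9 of 11 cytotoxic and NK, 1 of 7 B (Cd37) and 4 of 5 shared genes. The median log2 difference was 0.58 for T, 0.85 for cytotoxic and NK, 0.13 for B and 1.04 for shared genes, and 0.05 for all probe sets tested. With arrays centred on their medians these counts were 25 and 0, against 8.01% and 12% of all probe sets. None of the 39 tested genes passed limma's test (an adjusted p under 0.05 and a difference of 1.5-fold or more), and of all probe sets 0% did. At an unadjusted p under 0.05 in limma 26 of the 39 were higher and 0 lower, against 5.99% and 2.77% of all probe sets. With 3 rats in each group, the smallest p of an exact permutation test is 0.1, so the counts without overlap are descriptions.

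Setting the spread from the 6 arrays of these 2 groups alone changed the calls. In that limma fit 9 genes passed (Cd8a, Cd8b, Nkg7, Klrb1b, Ifng, Cd37, Ptprcap, Coro1a and Il2rg), where 1.15% of all probe sets passed as higher. The filter on low values used the mean over all 12 arrays. Every E2 value of Cd8a, Cd8b and Nkg7 (means 25.3, 22.4 and 29.96) was under its threshold of 35.5. These genes thus entered the test through their values in other groups, so their calls against E2 are descriptions. The methods' test on these 6 arrays, an unpaired t-test, put 12 genes past the same fold limit as higher when p values were left unadjusted, against 1.49% of all probe sets, and 0 after adjustment.

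**Figure D2:**
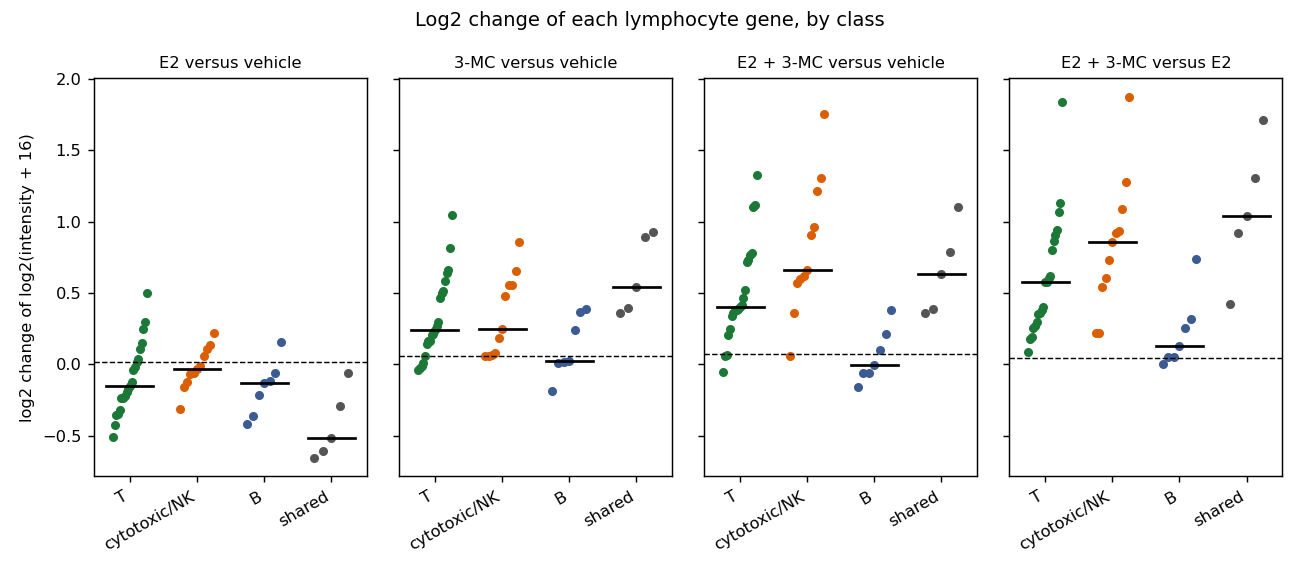
Log2 change of each lymphocyte gene (points) by class in 4 comparisons, on the log2(intensity + 16) scale, with the class median (solid bar) and the median of all tested probe sets (dashed line). T, cytotoxic and NK, and shared genes lie mostly above the dashed line in the comparison of E2 + 3-MC with E2 (medians 0.58, 0.85 and 1.04), and the B cell median of 0.13 lies near it.

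Among T cell genes the chains of the receptor complex were measured by Cd3e, Cd3d and Cd3g, which lie next to each other in the genome, and by Cd247. The intensity of Cd3e was 56.5, 46.3 and 75.7 with vehicle, 71.8, 81.04 and 65.7 with E2, 115, 104 and 83.6 with 3-MC and 102, 243 and 121 with E2 + 3-MC. Every E2 + 3-MC rat lay above every rat of the vehicle and E2 groups, and E2 + 3-MC rat 1 lay within the range of the 3-MC rats. Its log2 difference was 0.87 (SE 0.24, 3 rats in each group) from E2 with a limma adjusted p of 0.408, and 1.11 from vehicle with 0.136, the smallest adjusted p of any member in that comparison. Cd3g (1.07), Cd3d (0.90) and Cd247 (0.58) were higher than with E2 without overlap as well.

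The coreceptor genes of cytotoxic T cells, Cd8a and Cd8b, are adjacent and had 2 of the largest spreads within groups among T cell genes (SD 0.71 and 0.67). Cd8a gave 33.2, 20.98 and 93.4 with vehicle, 19.4, 28.2 and 28.3 with E2, 150.04, 44.5 and 158 with 3-MC and 65.1, 216 and 151 with E2 + 3-MC. Its E2 rats were all under 30 on this scale, as were no E2 + 3-MC rats, and vehicle rat 3 was well above the other vehicle rats. The log2 difference of E2 + 3-MC from E2 was 1.83 (SE 0.46, 3 rats in each group), with a limma adjusted p of 0.388. Cd8b gave 36.2, 19.96 and 44.7 with vehicle, 16.5, 28.9 and 21.9 with E2, 102, 11.1 and 87.7 with 3-MC and 50.8, 103 and 57.2 with E2 + 3-MC, again without overlap between E2 and E2 + 3-MC, with a log2 difference of 1.13 (limma adjusted p = 0.503). In 3-MC rat 2 both genes were low and in 3-MC rats 1 and 3 both were high.

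Cd4, the coreceptor of helper T cells that rat macrophages also express, gave 297, 258 and 435 with vehicle, 233, 232 and 308 with E2, 445, 309.7 and 407 with 3-MC and 339, 289 and 306 with E2 + 3-MC. The E2 + 3-MC rats overlapped every other group, whereas all 3-MC rats lay above all E2 rats, the lowest by a small margin, and the log2 difference of E2 + 3-MC from E2 was 0.27 (SE 0.19, limma adjusted p = 0.725). Foxp3, which encodes the transcription factor of regulatory T cells, gave 72.6, 66.4 and 94.2 with vehicle, 68.6, 66.1 and 55.5 with E2, 79.3, 69.9 and 74.3 with 3-MC and 97.96, 72.3 and 76.2 with E2 + 3-MC. The E2 + 3-MC rats were above the E2 rats by a small margin, with a log2 difference of 0.30 (SE 0.14, limma adjusted p = 0.579), and the vehicle rats overlapped both groups. Il7r, which encodes the interleukin 7 receptor of resting T cells, had the third largest spread among T cell genes and gave 42.4, 20.5 and 67.6 with vehicle, 42.98, 39.7 and 34.2 with E2, 165, 44.5 and 72.4 with 3-MC and 34.5, 122 and 109.6 with E2 + 3-MC. One E2 + 3-MC rat was at the level of the E2 rats and the other two were far above them. The T cell genes with the smallest differences from E2 were Cd28 (0.09), Zap70 (0.18) and Ctla4 (0.19), which encode a costimulatory receptor, a receptor kinase and an inhibitory receptor.

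**Figure D3:**
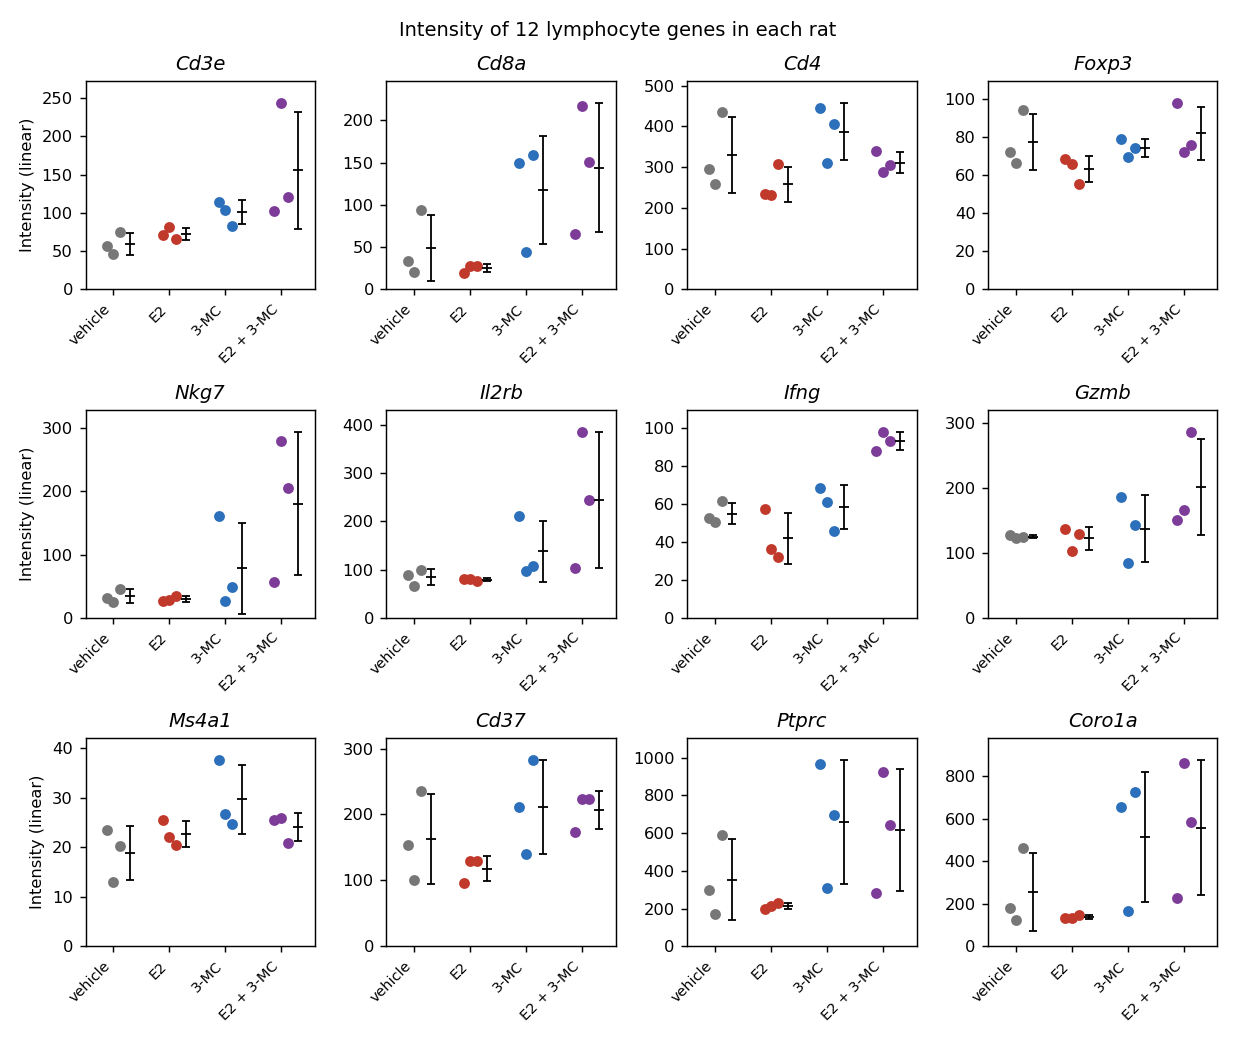
Linear intensity of 12 lymphocyte genes in each rat (points), with the mean and SD of 3 rats per group (black bars) and each axis starting at 0. The 3 Ifng values with E2 + 3-MC lie together above all other rats, whereas Nkg7, Il2rb, Cd8a and Coro1a spread widely within the 3-MC and E2 + 3-MC groups.

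The cytotoxic and NK genes had the highest class median after the shared genes. Nkg7, a granule protein of cytotoxic cells, gave 31.8, 25.8 and 46.4 with vehicle, 25.96, 28.97 and 34.9 with E2, 161, 26.5 and 49.05 with 3-MC and 56.9, 279.5 and 205 with E2 + 3-MC. All E2 + 3-MC rats exceeded all vehicle and all E2 rats, but 3-MC rat 1 exceeded 1 of them. The log2 difference was 1.88 (SE 0.49, 3 rats in each group) from E2 and 1.75 from vehicle, with limma adjusted p values of 0.397 and 0.321. Il2rb, the beta chain of the receptors for interleukins 2 and 15, gave 88.1, 66.5 and 99.9 with vehicle, 81.6, 80.95 and 76.3 with E2, 211, 96.4 and 108 with 3-MC and 103, 386 and 245 with E2 + 3-MC. The E2 rats lay within a narrow range, below every E2 + 3-MC rat, and the log2 difference was 1.28 (limma adjusted p = 0.399). Klrd1, which encodes the NK receptor chain CD94, gave 44.5, 31.1 and 30.9 with vehicle, 46.03, 40.5 and 32.2 with E2, 96.9, 46.8 and 43.8 with 3-MC and 48.3, 122 and 96.5 with E2 + 3-MC, with a log2 difference of 0.85 (limma adjusted p = 0.461). In each of these 3 genes, 3-MC rat 1 and E2 + 3-MC rats 2 and 3 were the highest of the 12 rats.

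Interferon gamma and the granule proteins behaved less alike. Ifng gave 52.6, 50.7 and 61.4 with vehicle, 57.3, 36.3 and 31.96 with E2, 68.4, 60.98 and 45.7 with 3-MC and 88.04, 97.8 and 93.2 with E2 + 3-MC. Every E2 + 3-MC rat was above all 9 other rats, and the 3 values lay close together. Its log2 difference was 0.94 (SE 0.17, 3 rats in each group) from E2, 0.62 from vehicle and 0.56 from 3-MC, with limma adjusted p values of 0.260, 0.294 and 0.613. The 0.260 was the smallest of all members against E2. Gzmb, which encodes granzyme B, gave 128, 123 and 125 with vehicle, 137, 102 and 129 with E2, 186, 84.03 and 143 with 3-MC and 152, 166 and 287 with E2 + 3-MC, and its log2 difference from E2 was 0.60 (limma adjusted p = 0.537). The 3 vehicle values of Gzmb were nearly equal, and 1 E2 + 3-MC rat was far above the other two. Prf1, the perforin gene, was 0.73 higher than with E2 without overlap (limma adjusted p = 0.397). Granzymes and NK receptors such as Klrb1b have close relatives in the genome, so the specificity of their probes is uncertain. Ncr1, an activating NK receptor, and Tbx21, the T-bet transcription factor, both differed from E2 by 0.22 and overlapped.

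Among the B cell genes 1 of 7 was higher than with E2 without overlap, against 12.4% of all probe sets. Of the 5 tested, 2 (Cd37 and Cd79b) were higher at an unadjusted limma p under 0.05, against 5.99% of all probe sets. Several had low intensities, where the added 16 makes log2 differences smaller than they were. Ms4a1, the gene of CD20, gave 23.6, 12.9 and 20.2 with vehicle, 25.6, 22.1 and 20.5 with E2, 37.6, 26.8 and 24.6 with 3-MC and 25.6, 25.95 and 20.9 with E2 + 3-MC. Cr2, the complement receptor of B cells and follicular dendritic cells, gave 19.4, 11.3 and 14.8 with vehicle, 11.6, 14.3 and 15.6 with E2, 17.3, 11.2 and 18.5 with 3-MC and 14.4, 14.99 and 12.03 with E2 + 3-MC. Both were below the filter, whose threshold was an intensity of 35.5, and in both the E2 and E2 + 3-MC rats overlapped. Cd22, an inhibitory receptor of B cells, gave 60.5, 49.5 and 134 with vehicle, 45.5, 53.9 and 57.6 with E2, 109.5, 54.3 and 125 with 3-MC and 65.5, 82.7 and 51.04 with E2 + 3-MC, with the highest values in vehicle rat 3 and in 3-MC rats 1 and 3. Blk, a B cell kinase, gave 61.3, 35.2 and 71.9 with vehicle, 58.1, 59.9 and 31.1 with E2, 55.8, 51.9 and 57.99 with 3-MC and 63.3, 49.6 and 50.2 with E2 + 3-MC, with all groups overlapping. Cd37, a tetraspanin found on B cells and on other leukocytes, gave 153, 100.01 and 235 with vehicle, 95.5, 129 and 129 with E2, 211, 140.2 and 282 with 3-MC and 174, 224 and 223 with E2 + 3-MC, and it was the B cell gene whose E2 + 3-MC rats all lay above the E2 rats (log2 difference 0.74, SE 0.27, limma adjusted p = 0.480). Cd79b was 0.32 higher than with E2 (limma adjusted p = 0.541), with overlap. The difference between classes was not put to a test, because genes of a class are not replicates.

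Coro1a, which encodes an actin-binding protein of leukocytes, gave 181, 122 and 463 with vehicle, 136, 133 and 148 with E2, 654, 165 and 725 with 3-MC and 229.7, 861 and 586 with E2 + 3-MC. It had the widest spread within groups of all tested members (SD 0.87), and its log2 difference of E2 + 3-MC from E2 was 1.71 (SE 0.56, limma adjusted p = 0.466). Ptprcap, which encodes a protein bound to CD45, differed by 0.92 (SE 0.20, limma adjusted p = 0.295). Il2rg, the common chain of several interleukin receptors, differed by 1.04 and Ptprc by 1.31, both without overlap. Ikzf1, the Ikaros transcription factor, differed by 0.42 with overlap.

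In the comparison of E2 + 3-MC with vehicle, 22 of the 44 genes were higher without overlap and 0 lower, against 11.2% and 3.3% of all probe sets, and these were 11 T, 10 cytotoxic and NK, 0 B and 1 shared gene (Ptprcap). The count depended on the scaling: it was 13 with arrays centred on their medians, against 5.97% of all probe sets, and 11 after another quantile normalization, against 7%. Class medians were 0.40, 0.66, -0.0044 and 0.63 for T, cytotoxic and NK, B and shared genes, and 0.07 for all probe sets tested. None of the 39 passed limma's test, which 0.163% of all probe sets passed, and at an unadjusted limma p under 0.05 19 were higher and 0 lower, against 6.99% and 2.73%. Without E2 + 3-MC rat 1, 1 gene passed in limma (Il2rb, log2 difference 1.70, adjusted p = 0.0410), against 0.0984% of all probe sets. No gene passed when any other single rat was left out. With the methods' unadjusted t-test 5 were higher (Cd3e, Prf1, Gzma, Klrb1b and Ifng), against 0.886% of all probe sets. The comparisons with vehicle and with E2 share the E2 + 3-MC rats and are not independent of each other.

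With 3-MC alone 40 of the 44 genes had a higher mean than with vehicle, and 5 were higher without overlap (Cd3e, Cd6, Cd28, Prf1 and Ms4a1) and 1 lower (Cd79b), against 4.86% and 2.63% of all probe sets. The medians were 0.24 for T, 0.25 for cytotoxic and NK, 0.02 for B and 0.54 for shared genes, and 0.06 for all probe sets tested. No gene passed limma's test, and neither did any of the probe sets tested (0%). At an unadjusted limma p under 0.05 there were 3 higher (Cd3e with a log2 difference of 0.64, Prf1 with 0.48 and Cd8a with 1.05, each with an adjusted p of 0.920) and 0 lower, against 3.06% and 1.18%. The 3-MC rats stood apart from each other, and rat 1 had the highest T cell and cytotoxic and NK levels of the 3. Without 3-MC rat 2, 19 genes were higher without overlap, and so were 19.2% of all probe sets. Rats of the same number deviated together in these 2 groups, so they were also set side by side as pairs on that evidence from the values. No label pairs the rats, and the methods' test is unpaired. The pairs were taken from the same values, so the counts and p values based on them are descriptions. The T cell level was higher with 3-MC in all 3 pairs (vehicle 0.010, -0.17 and 0.17, and 3-MC 0.53, -0.054 and 0.22 for rats 1, 2 and 3), as was the cytotoxic and NK level (0.052, -0.085 and 0.00054 against 0.73, 0.098 and 0.16). Of the 44 genes 21 were higher in all 3 pairs and 1 was lower, against 22.3% and 9.03% of all probe sets. In limma with these pairs as a block 0 genes passed, and at an unadjusted p under 0.05 13 of 39 were higher and 0 lower, against 7.11% and 1.81% of all probe sets. The methods' unadjusted t-test passed 1 gene (Cd3e) and 0.0941% of all probe sets as higher.

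With E2 alone every class median was under that of vehicle, and log2 differences of single genes ran from -0.66 (Il2rg) to 0.50 (Cd27). Of the 44 genes 32 had a lower mean with E2, 2 were higher without overlap (Cd28 and Tbx21) and 4 lower (Lck, Ncr1, Cd79b and Cxcr5), against 9.15% and 7.46% of all probe sets. Medians were -0.15 for T, -0.03 for cytotoxic and NK, -0.13 for B and -0.52 for shared genes, and 0.02 for all probe sets tested. None passed limma's test, which 1.58% of all probe sets passed, and at an unadjusted limma p under 0.05 there were 0 in either direction, against 6.82% higher and 4.89% lower. Without vehicle rat 2, 19 were lower without overlap, against 16.3% of all probe sets.

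E2 + 3-MC against 3-MC asks what the estrogen adds to the AHR ligand. Only Cd5 and Ifng of the 44 were higher without overlap and 0 were lower, against 5.37% and 3.12% of all probe sets, and without 3-MC rat 1 the higher count was 14, against 16.8%. The medians were 0.22 for T, 0.45 for cytotoxic and NK, -0.07 for B and -0.03 for shared genes, and 0.02 for all probe sets tested. None passed limma's test, which 0.111% of all probe sets passed, and 5 genes (Ifng, Klrb1b, Cd5, Nkg7 and Cd79b) had an unadjusted limma p under 0.05, all higher, against 2.81% of all higher and 2.22% lower. The interaction of E2 and 3-MC, which asks whether the log2 effects of both add up, passed for none of the members and for 0% of all probe sets. Its class medians were 0.23, 0.36, 0.04 and 0.50 for T, cytotoxic and NK, B and shared genes, and -0.01 for all probe sets tested. Its largest departures at an unadjusted limma p under 0.05 were Ifng (0.88, adjusted p = 0.894) and Cd79b (0.50, adjusted p = 0.982), where 1.59% of all probe sets were higher and 2.83% lower. A test for any difference among the 4 groups passed none of the members and 0.693% of all probe sets.

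**Figure D4:**
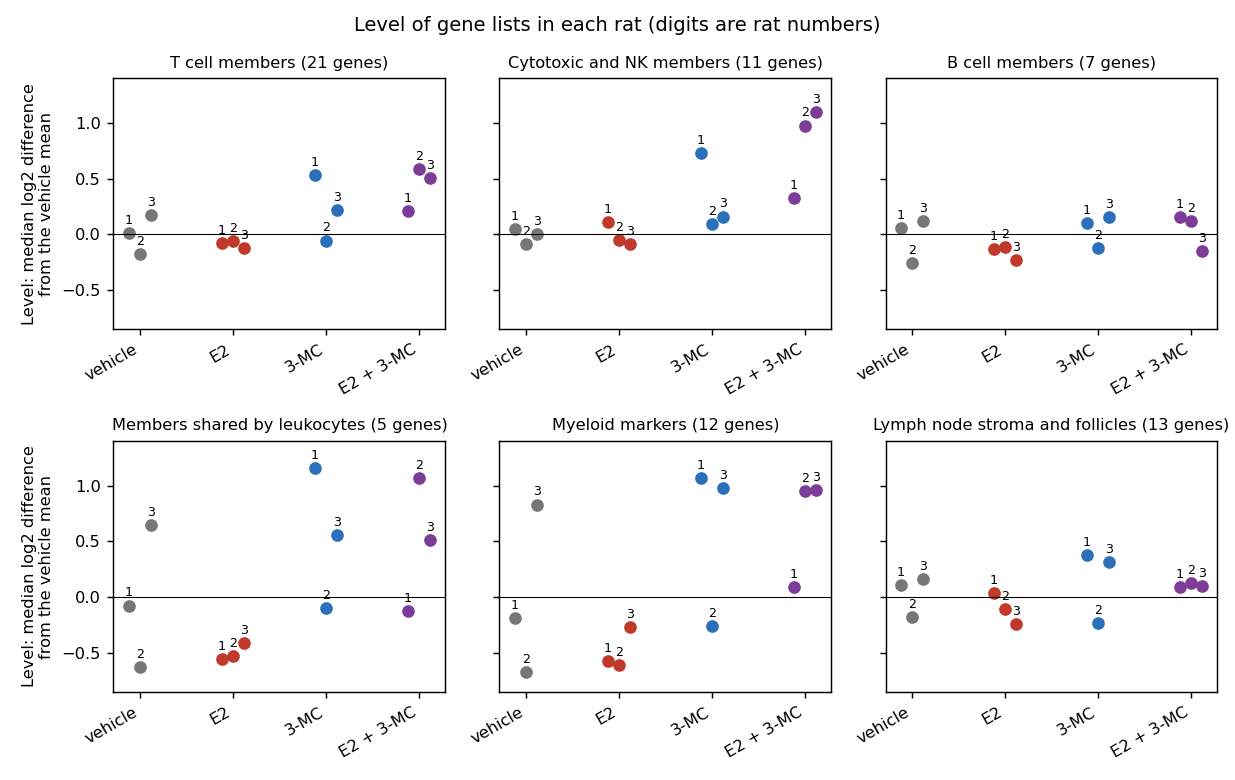
Level of 4 classes of lymphocyte genes and of 2 lists of other cells in each rat (points, with rat numbers), as the median log2 difference of the list's genes from the vehicle mean. In every panel except that of B cells all E2 + 3-MC rats lie above all E2 rats. In the lymph node panel the margin is small (lowest E2 + 3-MC level 0.088, highest E2 level 0.037). It is lost when arrays are centred on their medians (-0.052 in E2 + 3-MC rat 1, -0.039 in E2 rat 1). The same holds after another quantile normalization (-0.068 and -0.0075 in these rats). The B cell levels of all 12 rats lie between -0.26 and 0.16.

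Markers of other cells moved with these genes. Beside the counts without overlap given here for E2 + 3-MC against E2, 12.4% of all probe sets were higher and 5.15% lower. All 3 E2 + 3-MC rats exceeded all 3 E2 rats in 9 of 12 myeloid genes, with a median log2 difference of 1.22, and the summed intensity of the 12 genes was 5418 to 6503 with E2, 8100 to 14935 with E2 + 3-MC, 4559 to 12699 with vehicle and 6747 to 15230 with 3-MC. The genes of major histocompatibility complex class II and antigen presentation, which B cells and macrophages express, were higher without overlap in 9 of 13 (median 0.69). When the myeloid level of each rat was added to the 4-group limma model, the log2 difference of E2 + 3-MC from E2 was 0.51 for Cd8a, 0.76 for Nkg7, 0.57 for Cd3e, -0.038 for Ptprc and -0.11 for Cd4, and it was 0.90 for Ifng (limma adjusted p = 0.188). In that model Prf1 was at 0.63 (limma adjusted p = 0.788), Klrd1 at 0.53, Foxp3 at 0.22, Cd8b at 0.10 and Coro1a at 0.087. The B cell gene Cd37 was at 0.062 (limma adjusted p = 0.992). Apart from Ifng, every gene named for that model had a limma adjusted p of 0.788 or more. The class medians were then 0.19 for T, 0.47 for cytotoxic and NK, and 0.087 for shared genes, and -0.034 for all probe sets tested. With the skeletal muscle level in its place, Cd8a was 1.61 and Ifng 0.96. Luminal epithelial genes went the other way, with 6 of 10 lower without overlap, 0 higher and a median of -0.44. Whether a different mix of cells had a part in the lymphocyte values was not tested.

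The presence of a lymph node was examined with its own genes. Among B cell and follicle genes, Fcer2 ran from 11.3 to 37.0, Cr2 from 11.2 to 19.4 and Ms4a1 from 12.9 to 37.6 over the 12 arrays, and the mean of each was below the filter. The other 12 of the 13 measured lymph node genes passed it, as did the B cell genes Cd22 and Cd79b. Fdcsp, a secreted protein of follicular dendritic cells, ran from 34.2 to 63.3, Madcam1, an adhesion molecule of high endothelial venules, from 50.9 to 102.2, and Ltb, which encodes lymphotoxin beta, from 31.6 to 113.4. Ccl21, a chemokine of lymphatic vessels and T cell zones, ran from 914 to 1620, and Cxcl13, which attracts B cells, from 542 to 2094. Of these 13 genes, 4 (Ccl19, Fut7, Tnfsf13b and Ccr6) were higher with E2 + 3-MC than with E2 without overlap, against 12.4% of all probe sets, and the median was 0.19. Of 11 genes of plasma cells and the germinal centre, 2 were higher (Bcl6 and Fcrla) and 1 lower (Sdc1), with a median of 0.19. Beside the counts of both lists, the shares of all probe sets were 12.4% higher and 5.15% lower.

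Genes that act with these members were counted from lists that hold no members, and the genes named from lists of other cells and of partners were named after their values were seen. Signaling genes of antigen receptors were higher with E2 + 3-MC than with E2 without overlap in 11 of 22 (median 0.48) and lower in 0. The shares of all probe sets, also for the next list, were 12.4% higher and 5.15% lower. The list of T cell cytokines, chemokines and AHR-linked genes was higher in 9 of 23 (median 0.33) and lower in 0, and these were Il10, Ccl5, Cxcr6, Cxcl9, Cxcl10, Cxcl11, Xcl1, Il2ra and Ikzf3. Cxcl9, Cxcl10 and Cxcl11 encode chemokines that interferon gamma induces and that draw T cells. No gene of these lists passed limma's test against E2.

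The last question was whether rats high in 1 class were high in another. With group means removed, Cd3e and Nkg7 had a Pearson r of 0.632 over 12 arrays (permutation p = 0.146, adjusted over 3 pairs 0.439) and a Spearman rho of 0.594 (permutation p = 0.104, adjusted 0.312). Without the 2 arrays farthest from the median of Cd3e, E2 + 3-MC rats 1 and 2, r was 0.307. Cd79b, used for B cells since Cd79a had no value, gave a Pearson r of 0.307 with Cd3e (permutation p = 0.701, adjusted 0.893) and of 0.0672 with Nkg7 (permutation p = 0.893, adjusted 0.893), with Spearman rho of 0.336 (permutation p = 0.427, adjusted 0.641) and 0.0979 (permutation p = 0.799, adjusted 0.799). Without the 2 farthest arrays r with Cd3e was 0.437 and r with Nkg7 was 0.20. None of the 3 relations passed.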

How the data were processed

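Affymetrix Rat Gene 1.0 ST intensity values, 1 array per rat, were used as deposited: the authors summarized probe signals with PLIER in Expression Console, and the values are linear. Quantile normalization and centring on the control median, which the methods also name, do not show in them: array medians differ. Total RNA of the glands came from separate rats. log2(intensity + 16) was taken, which understates differences of low genes. The 23371 probe sets with a mean log2 value above the 20th percentile entered limma (version 3.58.1, R 4.3.3), where a single fit estimated the means of all 4 groups, with Benjamini-Hochberg adjustment over all of them. All tests were two-sided. A gene passed when its adjusted p was under 0.05 and its difference 1.5-fold or more. The platform annotation gave 15310 probe sets 1 symbol, 323 several and 13581 none, and the probe set with the highest mean intensity stood for a gene. Members without overlap had all 3 rats of 1 group above all 3 of the other. The members and lists were chosen with earlier results of these data known. Values in every rat are given for fixed reference genes and for the 3 tested members of each of the T, cytotoxic and NK, and B classes with the widest spread within groups, and other members were named for their differences. In simulated data of 3 against 3 rats for E2 and vehicle, this model recovered 79 of 100 2-fold and 98 of 100 4-fold changes among 23371 probe sets, with 7 false calls. The changed probe sets were drawn at random from all tested ones, whose median SD within groups was 0.19. Recovery at the larger spread of the lymphocyte classes (median SD 0.29 to 0.53) was not simulated, so these rates do not hold for them. Arrays of the same number deviated together in vehicle and 3-MC (r = 0.341, 0.442 and 0.564 over probe sets), so these groups were also fitted as pairs on that evidence from the values. No label or method gives such pairs. Promoter windows are RefSeq's for GRCr8. Correlations used 100000 resamples within groups. Alternatives covered the pseudocount, filter, scaling, probe set choice, model, test and each rat left out. The number of arrays limits the precision. Python 3.11.15 with matplotlib 3.10.9 drew the figures.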

Additional observations from a re-analysis of the deposited data

How the results depend on the processing

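No member passed for E2 against vehicle, for E2 + 3-MC against 3-MC or for the interaction under any alternative tried. For E2 + 3-MC against E2, where 0 passed, limma on the compared groups only passed 9, limma with array weights 1 (Ifng, adjusted p = 0.0481, where 0.03% of all probe sets passed) and the methods' t-test without adjustment 12. For E2 + 3-MC against vehicle that test passed 5, for 3-MC against vehicle 1 (Cd3e), and after Benjamini-Hochberg adjustment 0 in every comparison. For any difference among the 4 groups, array weights passed 2 (Ifng and Ptprcap, with 2.67% of all probe sets) and probe sets averaged per gene 1 (Ifng, with 1.43% of 11604 genes). Leaving out 1 rat at a time gave 0 to 1 for E2 + 3-MC against vehicle and 0 to 2 for any difference (Cd8a and Cd8b without 3-MC rat 2, Ifng without E2 rat 1, Il2rb without E2 + 3-MC rat 1, where 1.07%, 0.265% and 0.535% of all probe sets passed). Il2rb was also the 1 against vehicle, with 0.0984% of all. The adjusted p of Ifng against E2 ran from 0.0168 to 0.794 over its alternatives. With the replicate number as a block, which the values bear out only for vehicle and 3-MC, 0 members passed in each comparison, also in the 6 arrays of those groups, and it changed no call. Under the pseudocount, filter, scaling, probe set and block alternatives and the skeletal muscle covariate, class medians moved by less than the spread between rats. With the myeloid level in the model, added after the data were seen, T was 0.047 and shared 0.033 for E2 against vehicle, shared -0.0044 for E2 + 3-MC against vehicle, and T 0.19, cytotoxic and NK 0.47 and shared 0.087 for E2 + 3-MC against E2. When a rat was left out, B against vehicle ran from -0.015 to 0.18 with 3-MC and from -0.086 to 0.16 with E2 + 3-MC, both highest without vehicle rat 3, and for the interaction the cytotoxic and NK median ran from 0.15 to 0.77 (highest without 3-MC rat 1) and the B median from -0.021 to 0.25. Counts without overlap, an alternative set added after the data were seen, were 25 with median centring and with quantile normalization for E2 + 3-MC higher than E2 (8.01% and 8.31% of all probe sets), and 29 to 34 without single rats (14.6 to 22.1%). For E2 + 3-MC higher than vehicle they were 13 and 11 (5.97% and 7%), for E2 higher than vehicle 1 and 1 (9.17% and 10.6%), for E2 lower than vehicle 8 and 9 (10.4% and 9.58%), and for E2 + 3-MC lower than 3-MC 1 with median centring (6.48%). Without single rats the counts are given here with the share of all probe sets. For E2 against vehicle they ran from 2 to 6 higher (11 to 18.6%) and 4 to 19 lower (9.09 to 16.3%). For 3-MC against vehicle they ran from 5 to 19 higher (6.41 to 19.2%) and 1 to 2 lower (4.22 to 9.38%). For E2 + 3-MC lower than vehicle they were 0 to 1 (3.83 to 8.7%). For E2 + 3-MC against 3-MC they ran from 2 to 14 higher (6.9 to 16.8%) and 0 to 3 lower (3.92 to 10.2%). With the myeloid level the difference of E2 + 3-MC from E2 turned to -0.11 for Cd4 and -0.038 for Ptprc. The correlation of Cd3e and Nkg7 was 0.833 when group means were not removed (permutation adjusted p = 0.00102), and that of Nkg7 and Cd79b was -0.16 with median centring and -0.11 with quantile normalization. Apart from the rat or setting left out or changed, the cause was not tested. A search for signaling motifs in the proteins was not run.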
